A study of Mus musculus with 2 samples.

Results

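Weak promoter peaks of the transcription factor NRF1 were chosen by the signal that the authors' peak caller gave each peak, in a peak set on the mouse genome build mm10. A member was an optimal peak on chromosomes 1 to 19 with a signal under 30 and a summit within 1000 bp of the start site of a protein-coding gene, at which no other optimal summit within 1000 bp reached a signal of 30. There were 1548 such peaks among 17256 optimal peaks, and among the 8098 optimal peaks that lay within 1000 bp of a start site. They lay at 1389 of 20324 protein-coding genes, 6.83% of them, called weak promoters below. Of the other genes, 6263 (30.8%) had a promoter peak of signal 30 or more and are called strong promoters, and 12672 had no optimal summit within 1000 bp and are called unoccupied.

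The data were 2 chromatin immunoprecipitation and sequencing libraries of NRF1 in CH12.LX, an established mouse B-cell lymphoma line of strain B10.H-2aH-4bp/Wts, labelled female. The labels call the libraries biological replicates 1 and 2 of the same line and name no treatment, so there was 1 group and no comparison between conditions. The authors selected the optimal set, and a smaller conservative set, from lists called on each replicate and on their pool, by how well the ranks of peaks recurred (irreproducible discovery rate). A peak counts below as in the conservative set where any peak of that set overlapped it, which can be a neighbouring peak. Signal is the caller's own value per peak, its scaling and the number of reads are unknown from the sources used here, and signals are therefore compared only within a list.

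NRF1, nuclear respiratory factor 1, binds as a dimer to a palindromic, GC-rich site with a CpG in each arm, mostly in promoters inside CpG islands close to the start of transcription. It is best known for nuclear genes of the respiratory chain and of mitochondrial translation, and it also occupies many housekeeping genes. Methylation of the CpGs in its site is known to block its binding.

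None of the 457 members whose summit lay well inside a readable promoter window had the full NRF1 consensus under it. The consensus sought was GCGCACGCGC or GCGCATGCGC on either strand. Of the 1548 members, 457 had a summit at least 50 bp inside a RefSeq promoter window of GRCm38.p6, the build of the peaks, which runs from 250 bp before to 50 bp after a start. Within 50 bp of those summits the exact consensus occurred in 0 of 457, which allows a share of up to 0.656%, and in 355 of 2750 strong promoter peaks (12.9%). A site with up to 1 mismatch occurred in 14 of 457 members (3.06%, 95% Wilson interval 1.83 to 5.08) and in 1155 of 2750 strong promoter peaks (42.0%, 40.2 to 43.9), a difference past the threshold by Fisher's exact test (adjusted exact p = 2.50e-74). The 5 members of highest signal among the 14 are shown to give the nearest matches, in 30 bases of GRCm38.p6 with the 10-base site in capitals, each on the strand on which it reads as the consensus.
Rnf144a, chr12:26415273-26415302, minus strand: cgcttagtgcGCGCTCGCGCcccgtcgacc
Specc1, chr11:61956737-61956766, minus strand: cgtccaggggGCGCCCGCGCgccagtgcgg
Pdpr, chr8:111094560-111094589, plus strand: acccaaacaaGCGCACGTGCgggccggtcc
Lrrfip2, chr9:111118034-111118063, minus strand: cggcggggtaGCGGACGCGCgcggctcgga
Zfyve28, chr5:34288441-34288470, plus strand: ggtcacgaccGCACATGCGCcggaggcgcc
Counted from 1 at the 5′ end of the consensus, the substitutions were A5T at Rnf144a, A5C at Specc1, C8T at Pdpr, C4G at Lrrfip2 and G3A at Zfyve28.

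For contrast, the summits of 2 of the strong promoter peaks of highest signal hold the exact consensus, in the same format.
Capza2, chr6:17636895-17636924, minus strand: ctaggccgccGCGCACGCGCccccggagct
Golga1, chr2:39065584-39065613, plus strand: ttctcagcgcGCGCATGCGCccgtgtgcga
Capza2, an actin-capping subunit, had a signal of 679 in the optimal set, with 339 in replicate 1 and 344 in replicate 2. Golga1, a golgin of the Golgi apparatus, had 666, with 330 and 344. Rnf144a, a ubiquitin ligase of the RING type, had 29.97, with 16.8 and 13.3. Pdpr, a regulatory subunit of pyruvate dehydrogenase phosphatase, had 27.8, with 22.7 in replicate 1 and 5.23 in replicate 2. The member values were all below those of either strong peak in each replicate, as the rule fixes for the pooled signal.

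Promoter windows as a whole held few sites too. A promoter window of 300 bases could be read for 1388 of the 1389 weak genes, 1025 from RefSeq and 363 from mm9 windows joined by symbol. The exact consensus occurred in 2 of 1388 weak windows (0.144%, 95% interval 0.0395 to 0.524) and in 588 of 6257 strong windows (9.40%, adjusted exact p = 3.03e-49). A site with up to 1 mismatch occurred in 72 weak windows (5.19%, 4.14 to 6.48) and in 1988 strong windows (31.8%, adjusted exact p = 1.51e-113), which was 6.13 times the weak share. These and the other tests of sequence and position below used Fisher's exact test, two-sided, and p-values were adjusted by Benjamini-Hochberg over all 38. Genes and peaks that share a promoter are not independent, so the intervals and p-values cover no more than counting error.

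NRF1 sites were not called more frequent in weak than in unoccupied windows. The exact consensus occurred in 87 of 12634 unoccupied windows (0.689%), above the weak share (adjusted exact p = 0.0237), but this rests on only 2 weak windows and the call was lost under 6 alternatives, among them the analysis without replicate 1, which kept peaks among the 17256 highest of the replicate 2 list and dropped genes left with none (difference -0.454 percentage points, adjusted exact p = 0.242). Sites with up to 1 mismatch were in 5.11% of unoccupied windows, within 0.0741 percentage points of the weak share (adjusted exact p = 0.939). Base composition differed between these classes: 918 of 1388 weak windows (66.1%) were CpG-rich, with over 50% GC and an observed to expected CpG ratio over 0.6, against 26.8% of unoccupied windows (adjusted exact p = 1.59e-180) and 82.0% of strong windows (adjusted exact p = 2.38e-35). Among CpG-rich windows alone, 64 of 918 weak ones (6.97%, 5.50 to 8.80) and 523 of 3386 unoccupied ones (15.4%, 14.3 to 16.7) held a site with up to 1 mismatch, and the weak share was lower (adjusted exact p = 7.03e-12). That difference was called under every alternative run for it.

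The 2 exact sites in weak windows are shown because they are the exceptions.
Pomgnt2, chr9:121996010-121996039 of GRCm38.p6, minus strand: cccaaggcccGCGCACGCGCccgggttccg
Fam207a, chr10:76978614-76978643 of NCBIM37 (mm9), minus strand: caccgcaactGCGCACGCGCtacgggaggc
Pomgnt2, a glycosyltransferase that acts on alpha-dystroglycan, had a signal of 20.5 in the optimal set, with 7.51 in replicate 1 and 13.3 in replicate 2, and its summit lay 43 bp inside the gene. The site lay 10 to 19 bp from that summit, which was too close to the end of the window to be among the 457 summits read above. Fam207a had 19.7, with 6.12 and 10.5, and its summit lay 337 bp upstream of the start used on mm10. In the authors' separate mm9 peak set, Fam207a had a peak over this site with a signal of 3455. On that set's own scale the median over strong genes was 221. The site was not placed on mm10, so its distance from the mm10 summit is unknown. The single outer start used for each gene on mm10 does not cover every annotated start. The mm9 peak of Fam207a lay within 1000 bp of its outermost annotated start on mm9.

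**Figure D1:**
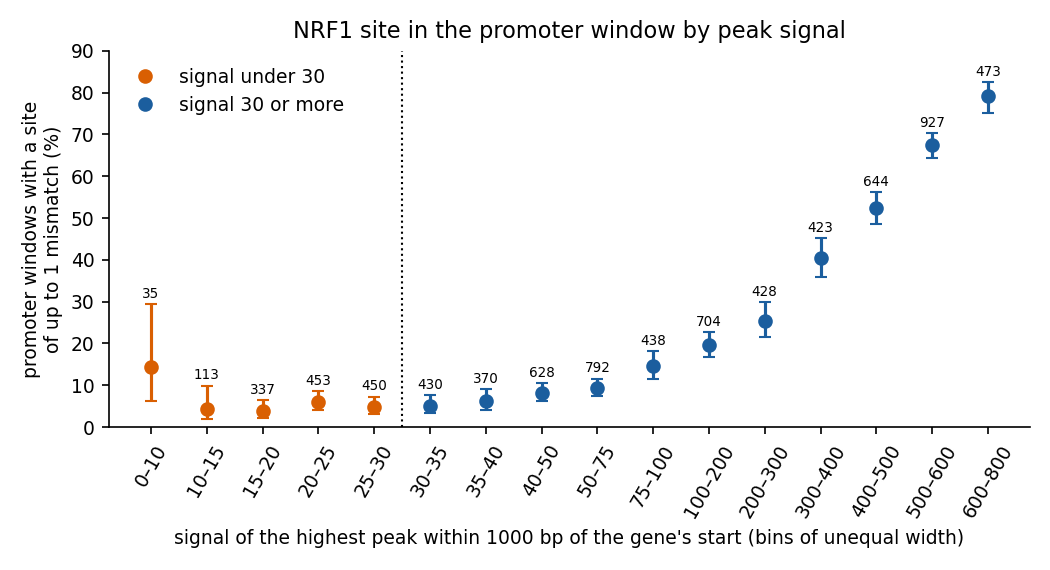
Percent of promoter windows with an NRF1 site of up to 1 mismatch (vertical axis, with 95% Wilson intervals) by the signal of the highest peak at the gene (horizontal axis, bins of unequal width, genes per bin above each point). Orange points are weak promoters and blue points strong ones. The share lies between 3.86% and 6.22% in the bins from 10 to 40, on both sides of the threshold of 30, and reaches 79.1% in the highest bin.

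The plot of site share by signal shows no step at the threshold of 30. Among genes whose highest promoter signal was 25 to 30, 4.89% of 450 windows held a site with up to 1 mismatch, and among those at 30 to 35 it was 5.12% of 430. The share was 8.12% at 40 to 50, 14.6% at 75 to 100, 25.5% at 200 to 300 and 67.4% at 500 to 600. Within the weak class there was no order by signal: in 4 groups of nearly equal size, from lowest to highest signal, the share was 4.60%, 5.48%, 4.91% and 5.76%. The 35 genes with signals under 10 had 14.3%, with an interval from 6.26 to 29.4 that overlaps those of all other weak bins.

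The near-matches in weak windows also had other letters. Taking a site and its reverse complement together, GCGCAGGCGC or GCGCCTGCGC was the commonest site with exactly 1 mismatch in strong windows, in 418 of 1400 (29.9%), and made up 71 of 559 in unoccupied windows (12.7%) but 2 of 70 in weak windows (2.86%). The commonest in weak windows was GCGCGCGCGC, an uninterrupted CpG run, in 13 of 70 (18.6%), against 7.21% in strong and 9.12% in unoccupied windows. These shares are a description of 1 site per window and were not tested.

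Short words bound by other promoter factors were frequent in weak windows. Of 13 other motifs, 5 were more frequent in CpG-rich weak windows than in CpG-rich unoccupied windows and none was less frequent, in a comparison added after the data were seen. ETS factors, which activate many housekeeping genes, had CCGGAAG in 21.6% of weak and 13.2% of unoccupied windows (adjusted exact p = 3.86e-09). SP and KLF factors, which bind GC boxes, had GGGGCGGGG in 33.9% and 29.3% (adjusted exact p = 0.0168). The CCAAT-binding factor NFY, sought as CCAAT followed by C or G and then A or G, had 25.2% and 20.3% (adjusted exact p = 0.00433). The CREB word TGACGTCA was in 5.23% and 3.13% (adjusted exact p = 0.00840), and the ZNF143 word ACTACAAT in 1.31% and 0.325% (adjusted exact p = 0.00289). ETS was called under every alternative run. SP/KLF was not called with promoters of 500 bp, at a threshold of 40 or with RefSeq windows alone, where only ETS, CREB and ZNF143 were. At a threshold of 20 only ETS and SP/KLF were called, and at 40 the EBF word was less frequent in weak windows.

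Against strong promoters, 2 of the 13 motifs were less frequent in weak windows, and none was more frequent at the threshold of 30 over all windows. The YY1 word AAGATGGC was in 30 of 1388 weak windows (2.16%, 1.52 to 3.07) and in 435 of 6257 strong windows (6.95%, adjusted exact p = 3.40e-13). The ETS word was in 18.2% and 22.7% (adjusted exact p = 6.27e-04). YY1 was lower under every alternative run, but ETS was not called without replicate 1, at a threshold of 40 or among CpG-rich windows alone. In the last 2 of these a motif was more frequent in weak windows, PU.1 at a threshold of 40 and SP/KLF among CpG-rich windows. The other 11 did not pass the threshold, with shares in weak and strong windows of 26.0% and 24.2% for SP/KLF, 23.9% and 24.9% for NFY, 3.96% and 3.92% for CREB and 1.37% and 1.31% for ZNF143. Over all 20279 promoter windows read, the words occurred in 12.0% for ETS, 16.3% for SP/KLF, 19.7% for NFY, 2.41% for CREB, 0.893% for ZNF143 and 3.17% for YY1. All words were sought on both strands, and overlapping words count under each.

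**Figure D2:**
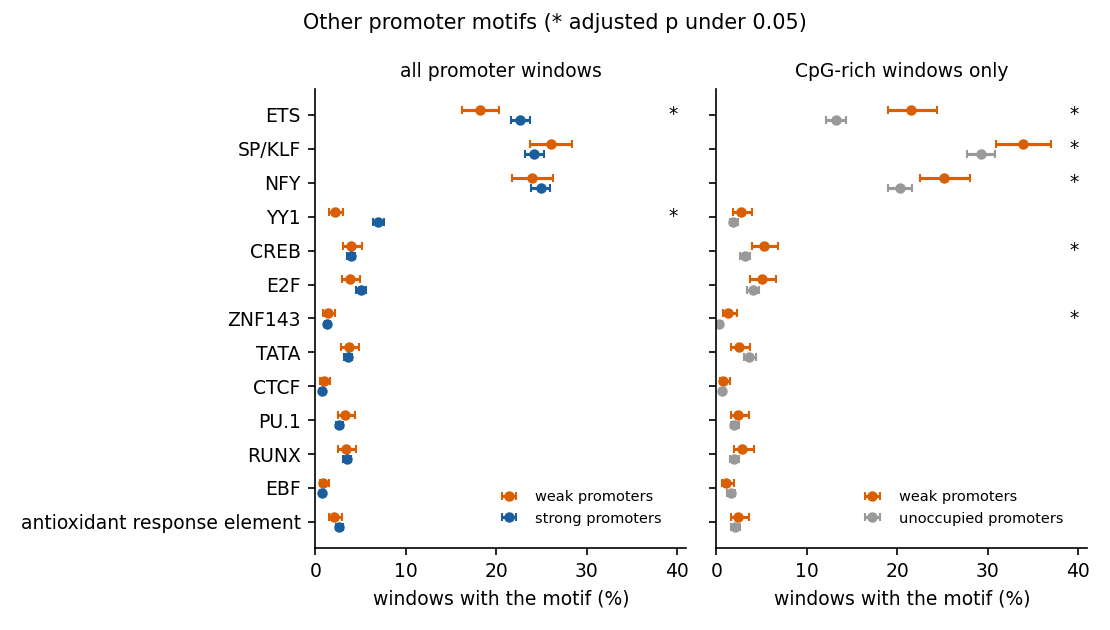
Percent of promoter windows with each of 13 motifs (horizontal axis, points with 95% Wilson intervals) in weak promoters (orange) against strong promoters (blue, left, all windows) and against unoccupied promoters (grey, right, CpG-rich windows only). Asterisks mark adjusted p under 0.05: ETS and YY1 on the left, both lower in weak promoters, and ETS, SP/KLF, NFY, CREB and ZNF143 on the right, all higher in weak promoters.

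The 120 bases before the start are shown for 4 weak promoters whose 300-base window had no NRF1 site within 2 mismatches, to show these motifs in place. They are in the gene's own direction, from GRCm38.p6, with matches to the ETS, SP/KLF, NFY, CREB, ZNF143 and YY1 words in capitals. Matches to the other words sought are not marked.
Plekha4, chr7:45526210-45526329, plus strand, CREB word: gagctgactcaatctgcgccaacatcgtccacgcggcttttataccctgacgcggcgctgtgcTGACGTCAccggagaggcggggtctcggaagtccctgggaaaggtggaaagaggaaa
Lman2l, chr1:36445272-36445391, minus strand, NFY words: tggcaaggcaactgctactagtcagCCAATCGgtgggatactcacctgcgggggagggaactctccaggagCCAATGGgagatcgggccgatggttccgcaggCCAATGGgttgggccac
Eif3c, chr7:126566367-126566486, minus strand, ETS and ZNF143 words: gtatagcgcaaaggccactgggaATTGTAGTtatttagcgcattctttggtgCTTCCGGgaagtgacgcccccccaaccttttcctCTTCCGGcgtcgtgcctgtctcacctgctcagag
Osbp, chr19:11965724-11965843, plus strand, NFY and SP/KLF words: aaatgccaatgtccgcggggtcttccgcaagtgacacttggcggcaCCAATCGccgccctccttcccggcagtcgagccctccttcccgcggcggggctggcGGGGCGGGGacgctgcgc
Plekha4, which encodes a pleckstrin homology domain protein, shares its peak with the divergent gene Ppp1r15a, a regulatory subunit of protein phosphatase 1 in the stress response. That peak had the highest signal of all members, 29.99, with 27.1 in replicate 1 and 11.8 in replicate 2, and lay 98 bp upstream of Plekha4. Lman2l, a lectin of early secretory transport, had 29.98, with 16.9 and 16.4. Eif3c, a subunit of translation initiation factor 3, had 26.4, with 11.2 and 14.3, and its summit lay 18 bp upstream of the start. Osbp, the oxysterol-binding protein, had 19.3, with 21.8 and 21.2. In all 4 the member overlapped a peak of both replicate lists and of the conservative set.

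Weak summits were spread more widely around the start than strong ones. The summit lay within 100 bp of a start for 577 of 1548 members (37.3%, 34.9 to 39.7) and for 3352 of 5971 strong promoter peaks (56.1%, adjusted exact p = 2.67e-39), with median distances of 168 and 79 bp. Members lay inside the gene in 60.8% of cases and strong peaks in 51.3% (adjusted exact p = 8.90e-11), and 208 members (13.4%) lay 500 to 1000 bp inside. Weak genes were less often in a divergent pair, defined as a protein-coding start on the other strand within 1000 bp that is transcribed away: 129 of 1389 (9.29%) against 1051 of 6263 strong genes (16.8%, adjusted exact p = 1.15e-12). In 128 of the 129 the partner was weak too, but such pairs mostly share a summit, so the rule itself puts both in 1 class. The share within 100 bp fell with signal inside the class, from 48.1% of the 387 members of highest signal to 22.2% of the 387 of lowest signal.

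**Figure D3:**
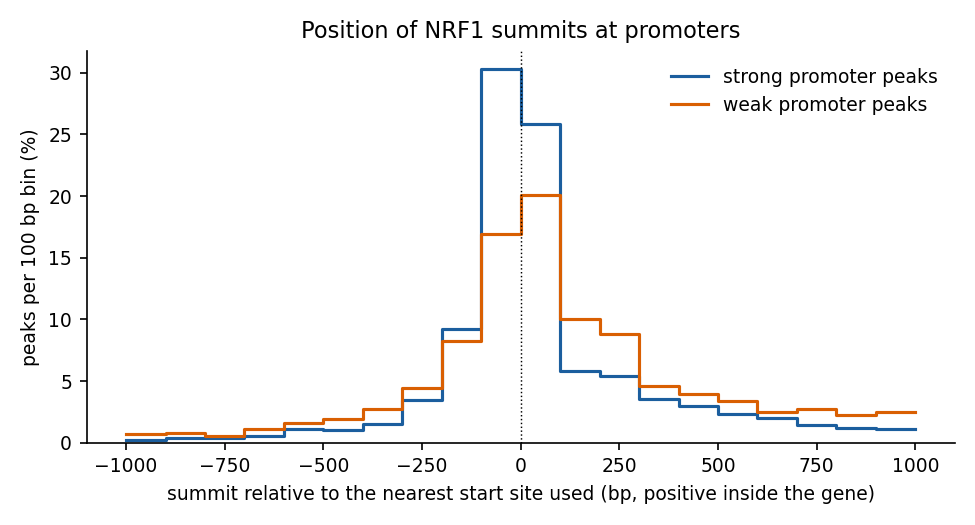
Percent of peaks per 100 bp bin (vertical axis) by the position of the summit relative to the nearest start site used (horizontal axis, bp, positive inside the gene), for weak promoter peaks (orange) and strong promoter peaks (blue). Strong summits reach 30.3% in the bin just upstream of the start, where weak summits have 16.9%, and weak summits are above strong ones in every bin from 100 bp inside the gene onward.

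Member peaks had 1 width and no more than 4 lay at a gene. All 1548 were 344 bp wide, as were 99.96% of weak distal peaks and 98.4% of weak peaks beside a strong summit, against 46.1% of strong promoter peaks, whose widths ran from 86 to 823 bp. A single member lay at 1115 weak genes, 2 at 241 and 3 or more at 33. Stx11, a syntaxin of immune cell secretion, had 4, with signals of 24.7, 24.0, 23.0 and 17.0. Of the members, 149 lay within 1000 bp of more than 1 weak start. The nearest strong optimal summit was a median of 33754 bp away, and for 94 members (6.07%) it was within 2000 bp.

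Peak values describe the members but were used by the rule, so they carry no test. Member signals ran from 4.72 to 29.99, with quartiles of 16.3, 21.2 and 25.4. The 3 members just inside the threshold were Plekha4, Lman2l and Rnf144a, at 29.99, 29.98 and 29.97. The 3 peaks just outside were at Gatad2a, 4930522L14Rik and Golga3, with signals of 30.0006, 30.006 and 30.0236, and in replicate 1 they had 13.3, 13.0 and 13.4. The peaks on both sides of the threshold were all in the conservative set.

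Most members overlapped a peak in both replicate lists, and 38.3% were near the top of both. The relaxed lists are long, with 295569 peaks in replicate 1 and 296938 in replicate 2. A peak of the relaxed replicate list overlapped 98.8% of members in replicate 1, with a median signal of 11.8, and 97.2% in replicate 2, with 10.7. For strong promoter peaks the medians were 77.8 and 59.7, and for weak peaks away from promoters 10.3 and 10.1, with 97.8% and 96.8% overlapped. Among the 17256 highest peaks of a replicate list lay 66.8% of members in replicate 1 and 58.5% in replicate 2, and 593 (38.3%) were in both and 202 in neither. The share in both was 98.3% for strong promoter peaks and 26.2% for weak peaks away from promoters. A peak of the conservative set overlapped 872 members (56.3%), against 98.1% of strong promoter peaks and 48.2% of weak distal ones. Both measures fell with signal, so that 70.3% of the 387 highest members and 14.7% of the 387 lowest were near the top of both lists, and 81.7% and 35.7% were in the conservative set.

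**Figure D4:**
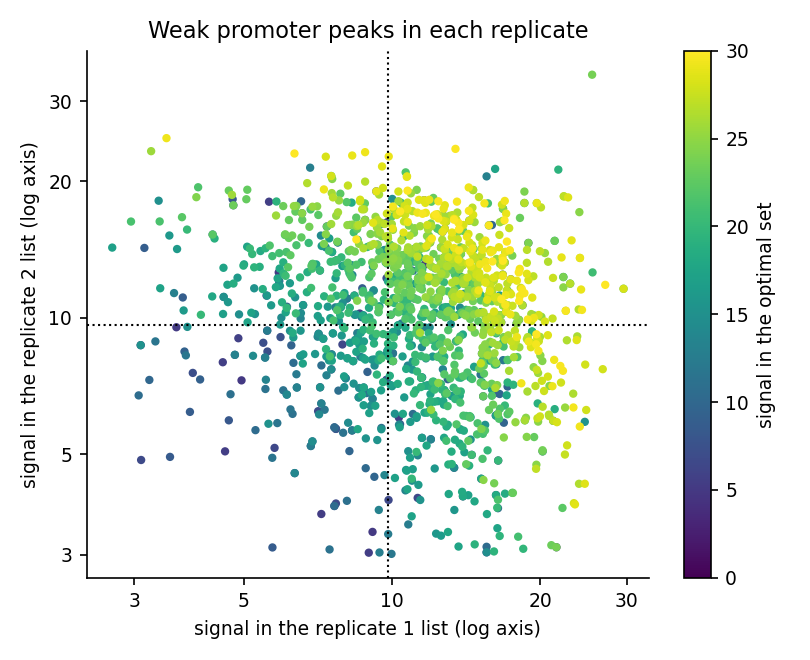
Signal of each weak promoter peak in the replicate 1 list (horizontal, log axis) and in the replicate 2 list (vertical, log axis), coloured by its signal in the optimal set, for the 1485 members with a peak in both lists. Dotted lines mark the signal of the peak ranked 17256 in each list, 9.82 and 9.62. Points lie on every side of both lines, and 38.3% of members lie beyond both lines.

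In the plot of replicate signals the members form a cloud with no upward trend. Spearman's correlation between replicates was -0.145 over 1485 members and 0.941 over 5965 strong promoter peaks, as a description. The rule bounds the pooled signal from above, and its part in this value was not tested. By the highest replicate peak each member overlapped, the best placed in both lists was at Sp1, a zinc finger activator of GC-box promoters. Its values were 25.5 in replicate 1, 34.3 in replicate 2 and 23.8 in the optimal set, 817 bp upstream of the start. Both replicate values were above the optimal signal there, but the scaling of the lists is unknown. An overlapped replicate peak can also belong to a neighbouring peak. Rpl27a, a protein of the large ribosomal subunit, had 22.8, 18.4 and 28.4 in the same order, and Mcm8, a helicase of homologous recombination, 22.3, 18.5 and 27.0. Ubxn1, an adaptor of the p97 ATPase, differed between replicates, with 6.34 and 23.0 and an optimal signal of 29.96.

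Of the 6 genes with the lowest member signals, 3 had a second member. Ppm1j, a protein phosphatase, had the lowest value, 4.72, and a second member with 20.1, and both overlapped the same replicate peaks, of 16.4 and 4.84. Klc2, a kinesin light chain, had 4.72 beside 21.7, with 11.1 and 11.03 in the replicates. Slc25a35, of the mitochondrial carrier family, had 4.93 beside 18.1. Fgf11, an intracellular fibroblast growth factor homologue, and Lsg1, a GTPase of ribosome maturation, had 1 member each, of 4.94 and 4.85. Sh3glb1, an endophilin family protein, had 1 of 4.87, with 11.8 in replicate 2 and no overlapping peak in the replicate 1 list. In all, 47 members (3.04%) were below the median signal of the pooled relaxed list, 6.18, and 31.9% of those were in the conservative set.

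The mm9 set held few of these promoters. It gave 387 of the 1389 weak genes (27.9%) a peak within 1000 bp of a start, against 91.2% of strong genes, with median signals on its own scale of 41.3 and 221. A site with up to 1 mismatch lay within 50 bp of the summit at 48 of 387 weak genes (12.4%, 9.48 to 16.1) and at 2258 of 5711 strong genes (39.5%, adjusted exact p = 1.10e-29). Of the 387, 33 had an mm9 signal over the median of strong genes, and 19 of these 33 held such a site, while 29 of the other 354 did (8.19%). The exact consensus was at 5 of the 387: Fam207a, printed above, and 4 shown here from NCBIM37, because their mm9 signals were high while their mm10 members were weak.
Tnip1, chr11:54769357-54769386, plus strand: cgcaggaggtGCGCATGCGCgcctgtctgg
Pfn1, chr11:70468562-70468591, minus strand: gcaggcgcggGCGCACGCGCcgccgcccgc
Maml3, chr3:51600493-51600522, plus strand: aggcttcagtGCGCATGCGCaggagcagtg
Gse1, chr8:123061172-123061201, minus strand: tcagccgcaaGCGCACGCGCgcgcaccgac
The mm9 signals were 4803 at Tnip1, an inhibitor of NF-kappaB signalling, 2286 at Pfn1, the actin-binding profilin, 6468 at Maml3, a Notch coactivator, and 455 at Gse1. At Tnip1, Maml3 and Gse1 the mm9 peak was not within 1000 bp of the gene's outermost annotated start, the kind of start used on mm10. With the outermost start alone, the weak share was 36 of 341 (10.6%).

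The weak share of 28 gene lists ran from 0 to 27.0%, and the intervals of most lists include the share of all genes. The groups below are counts beside the 6.83% of all genes and were not tested, because the lists were chosen with earlier results of these data known. Of the genes with any promoter peak, 18.2% were weak over the whole genome. Over all genes, 9434 of the 20279 promoter windows read were CpG-rich. Leaving out a replicate can only take weak genes away. Over all genes the weak ones went from 1389 to 854 without replicate 1 and to 968 without replicate 2. List shares without a replicate are therefore expected to fall and are not to be set against the 6.83%. Genes dropped in this way also leave the totals of the lists, and no share over all genes was computed for these settings.

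Most genes of the groups that NRF1 is best known for had strong promoters. Of 73 oxidative phosphorylation subunits, 61 were strong and 3 (4.11%) weak: Atp5d, an ATP synthase subunit, with a signal of 27.3 but 2372 in the mm9 set, where the median over strong genes was 221, Ndufa3 of complex I with 24.6, and Cox4i1 of cytochrome c oxidase with 16.5. Of 78 mitochondrial ribosomal proteins, 64 were strong and 2 (2.56%) weak, Mrpl3 with 26.1 and Mrps17 with 25.8. The intervals of these 2 shares, 1.41 to 11.4 and 0.706 to 8.88, include the 6.83% of all genes. The other housekeeping lists had weak shares of 5.13% for spliceosome genes (2 of 39), 4.65% for DNA replication genes (2 of 43, Mcm2 with 23.6 and Prim2 with 21.6), 7.89% for proteasome subunits (3 of 38, led by Psmb2 with 29.5) and 1.89% for translation initiation factors (1 of 53, Eif3c), and their intervals include it too. Without replicate 2 the shares were 1.30% for mitochondrial ribosomal proteins, 2.63% for the spliceosome and 2.38% for DNA replication. All 16 occupied nuclear pore genes of 20 were strong.

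Cytosolic ribosomal proteins were more mixed. Of 81, 52 were strong and 11 (13.6%, 7.76 to 22.7) weak, among them Rps27a with 28.7, Rpl27a with 28.4, Rplp0 with 24.8 and Rps13 with 24.6. Without replicate 2 the share was 7.89%. The signals of Rps27a were 9.55 in replicate 1 and 21.6 in replicate 2, and those of Rps13 12.5 and 12.3. Taking the highest member of each of the 11 genes, Rpl19 had the lowest, 12.3, and its mm9 signal was 7894.

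The joint list of early response genes and NF-kappaB targets had the highest weak share of the 28 lists. Of its 37 genes, 10 were weak (27.0%, 15.4 to 43.0) and 11 strong, and 81.1% of their windows were CpG-rich. The weak ones were Bcl2, Nr4a2, Atf3, Dusp2, Fosl2, Gadd45a, Nfkbie, Ier2, Pim1 and Nfkbiz. Bcl2, an inhibitor of apoptosis, had 26.7, with 16.4 and 10.8 in the replicates. Nr4a2, an orphan nuclear receptor, had 25.9, with 12.6 and 13.2. Atf3, a stress-induced factor of the CREB family, had 25.1, with 13.8 and 11.1. Fosl2, a subunit of AP-1, had 19.7, with 18.5 and 3.09, and was not in the conservative set. Of the 12 member peaks at these genes, 6 were in the conservative set. The dual specificity and tyrosine phosphatases, which share Dusp2 with this list, had 8 of 39 weak (20.5%, 10.8 to 35.5), led by Ptpn9 with 28.6.

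Histone genes of the replication-dependent clusters, which make core and linker histones in S phase, had 15 of 67 weak (22.4%, 14.1 to 33.7) and 18 strong, though 17.9% of their windows were CpG-rich. The 15 genes rested on 13 peaks, since neighbours such as H2ac15 and H2bc15 share 1, with a signal of 23.1 and 13.0 and 14.0 in the replicates. H1f3 had 28.3, with 20.5 and 9.81, and H4c3 24.7, with 13.5 and 13.4. H4f16 had 28.8 in the optimal set and 27.7 in replicate 1, with no overlapping peak in the replicate 2 list. Without replicate 1 the share was 14.8%. Histone genes are near-identical copies, and how reads that match several copies were placed is unknown from the sources used here.

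Genes of the B cell lineage were present among weak promoters. Of 42 B cell transcription factors 7 (16.7%, 8.32 to 30.6) were weak and 16 strong. Runx1 had 29.5, Xbp1, a factor of plasma cell differentiation, 29.2, Runx3 27.7, Foxp1 25.1, Pou2af1, a coactivator of octamer-binding factors, 23.1, Pax5, the factor of B cell commitment, 21.6, and Irf4 12.9. Pax5 had 16.6 in replicate 1 and 6.30 in replicate 2, and 3 of the 8 member peaks at these genes were in the conservative set. Of 41 B cell receptor and surface genes 6 (14.6%) were weak, Dapp1 with 26.7, Cr2 with 18.9, Cd72 with 18.3, Tnfrsf13c with 15.2, Cd81 with 15.2 and Cd40 with 11.7. Without replicate 1 the 2 shares were 7.89% and 2.78%. Of the surface genes 24 were unoccupied, against 62.3% of all genes, and CpG-rich windows made up 22.0% of theirs and 50% of those of the transcription factors.

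Most promoters of the lists for other lineages were unoccupied, and few of their windows were CpG-rich except in the synapse and homeobox lists. Of 28 T cell and myeloid genes, 1 was weak and none strong: Cd5, a surface glycoprotein of T cells and some B cells, with 15.3, and 5.27 and 10.2 in the replicates, and without replicate 2 it was 0 of 27. Synapse genes had 2 of 27 weak (7.41%), Vamp2 and Homer1, and 3 strong, and without replicate 2 the share was 3.85%. Hepatocyte and muscle genes had 0 weak of 24 and 0 of 26, and 1 of 1102 olfactory receptors was weak, Olfr523 with 29.8. Developmental homeobox genes had 3 of 88, with Pax5 counted again beside Hoxa10 and Pax2. CpG-rich windows made up 3.57% for T cell and myeloid, 0 for hepatocyte, 3.85% for muscle, 59.3% for synapse and 52.3% for homeobox genes. Whether occupancy of these lists goes with the labelled B cell origin was not tested, and binding does not measure expression.

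**Figure D5:**
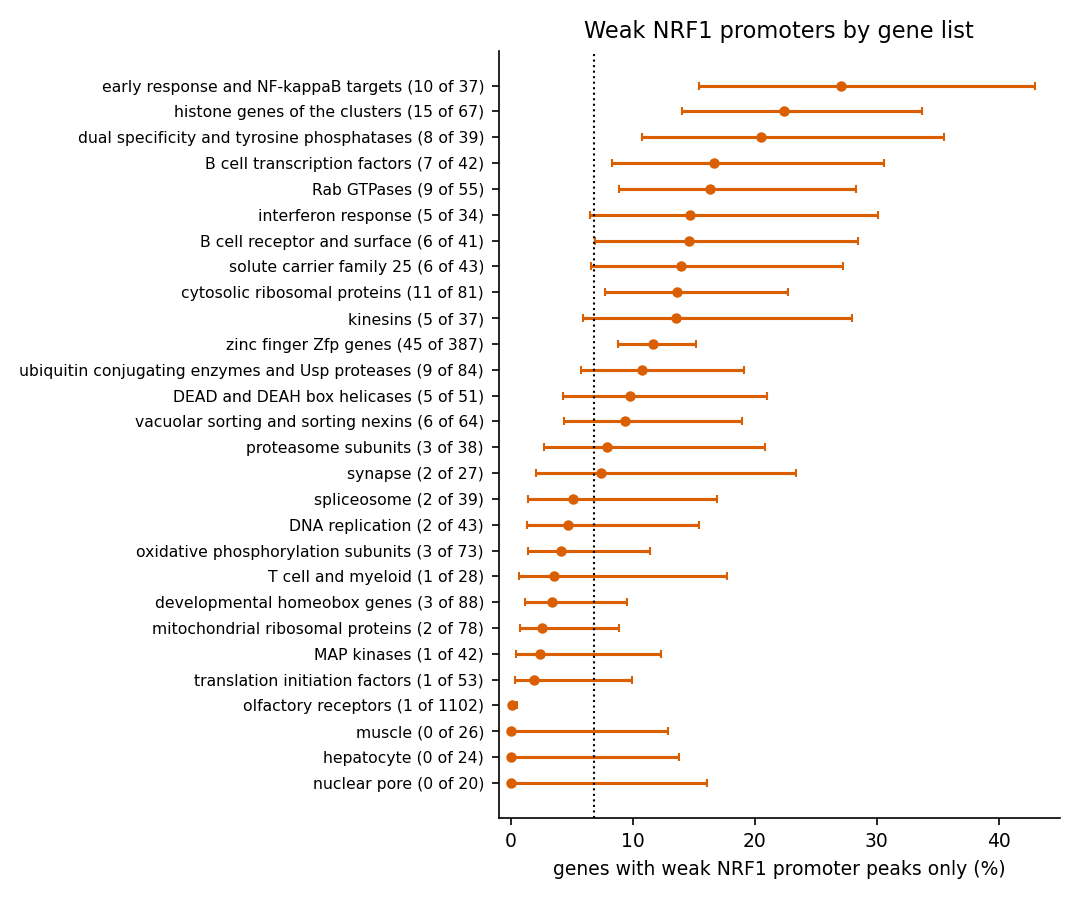
Percent of genes with weak NRF1 promoter peaks only (horizontal axis, with 95% Wilson intervals) for 28 gene lists, with the number of weak genes of all genes in parentheses. The dotted line is the 6.83% of all genes. The list of early response genes and NF-kappaB targets lies at 27.0% and cluster histones at 22.4%. Oxidative phosphorylation subunits and mitochondrial ribosomal proteins lie below the line at 4.11% and 2.56%.

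Among larger families, the zinc finger Zfp genes had 45 of 387 weak (11.6%, 8.80 to 15.2) and 138 strong, led by Zfp280b with 29.7, and without replicate 2 the share was 6.34%. Rab GTPases, which direct vesicle traffic, had 9 of 55 (16.4%), led by Rab26 with 29.7, and without replicate 1 the share was 8%. Kinesins had 5 of 37 (13.5%, 5.91 to 28.0), led by Kif2c, a microtubule depolymerase, with 29.6, and 14.3 and 17.2 in the replicates. Interferon response genes had 5 of 34 (14.7%, 6.45 to 30.1), led by B2m, the light chain of class I antigen presentation, with 27.9. Without replicate 2 their share was 3.33%. The intervals of kinesins and of interferon response genes include the 6.83% of all genes. Other families were nearer the background, such as DEAD and DEAH box helicases with 5 of 51, led by Dhx8, and vacuolar sorting and sorting nexin genes with 6 of 64, led by Snx9, of which 4.92% were weak without replicate 1.

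Members were found on every autosome. Of the members, 151 (9.75%) lay on chromosome 11, which has 7.83% of the genes, 11.5% of the pooled relaxed list, 16.0% of weak distal peaks and 10.8% of strong promoter peaks. The share of genes that were weak ran from 4.75% on chromosome 16 to 8.40% on chromosome 15. It was 8.10% on chromosome 11.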

How the data were processed

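Peak lists from both NRF1 libraries were used as the authors deposited them: an optimal and a conservative set, a relaxed list for each replicate and for the pool on mm10, and a set on mm9. The deposited signal values are in the caller's own scale, and the deposited rank score of the selected sets has a maximum of 1000. Per the text notes deposited with the samples, mm10 lists were called with a control, which was not analysed here. The sources used here do not give the caller, its thresholds or the depth, so depth is unknown and no interval for it was computed.

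Start sites were the outer ends of protein-coding genes in the RefSeq table of GRCm38.p6. Strand came from RefSeq promoter windows for 16457 genes and from GENCODE vM1 by symbol or synonym for 3505 and 362, and 341 genes without one were left out. Promoter sequences are RefSeq windows of GRCm38.p6 or, where none matched, windows around GENCODE starts in NCBIM37 (mm9), joined by symbol with no coordinate converted. The best NRF1 match of each window was taken on both strands. Where the plan named only mm9 for summits, mm10 summits inside RefSeq windows were added. Shares were compared by two-sided Fisher's exact tests (scipy 1.17.1), adjusted by Benjamini-Hochberg over 38 tests at 0.05, with 95% Wilson intervals. The limit for a count of 0 is 3 counts of the total. The search and the rule were tested on made-up sequences and tables.

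The members and gene lists were chosen with earlier results of these data known. Named genes were the members of highest and lowest signal, those with the exact consensus, those best placed in both replicates, the strongest weak gene of each list and 10 further genes listed for their role in mitochondria or B cells, of which Cd5 and Pax5 were weak. Other genes were named after their values were seen. Some of the 10 are not reported here.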

Additional observations from a re-analysis of the deposited data

How the results depend on the processing

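Of 148 values under other settings for 14 results, 19 were counts of motifs. Of the other 129, 122 kept their side of the threshold, and kept their direction too unless neither value was called. For sites with up to 1 mismatch against unoccupied windows, the uncalled difference was negative in some of them, such as -0.371 percentage points at a threshold of 20. The motifs called were the same in 6 of 10 alternatives against strong windows and in 2 of 9 against unoccupied windows. The settings were thresholds of 20 and 40, promoters of 500 and 2000 bp, the conservative set, either replicate left out by keeping peaks among the 17256 highest of the other (the signal itself still comes from both), chromosome 11 left out, and other definitions of the site, of CpG-rich and of distance. The lower share of exact sites in weak than in unoccupied windows (-0.545 percentage points) lost its call at a threshold of 20 (-0.482), at 500 bp (-0.437), and, in settings chosen after seeing the data, with RefSeq windows only (-0.300), with the start of the RefSeq window (-0.301) and with genes unoccupied in the mm9 set too (-0.305). Leaving out a replicate gave -0.454 to -0.689. For sites with up to 1 mismatch, the difference of 0.0741 became -1.97 percentage points with the words TGCGCA or GCATGCGC in place of the consensus (adjusted p = 0.00112, Fisher's exact test), and the cause was not tested. The motifs that differed from strong windows went from 2 to 1 without replicate 1 and to 2 without replicate 2, and at 2000 bp were 3, with E2F added. YY1 was among them under every alternative. At a threshold of 40 and, in a setting added after seeing the data, among CpG-rich genes the count was 2, but ETS was replaced by PU.1 and by SP/KLF, both more frequent in weak windows. Those that differed from CpG-rich unoccupied windows went from 5 to 2 at a threshold of 20, to 8 at 40, of which EBF was lower in weak windows, and to 3 with RefSeq windows only, and leaving out a replicate gave 5 to 7. Of 224 values for gene lists, 32 left the interval of the main value, most of them at a threshold of 20, where fewer genes are weak. No paired analysis was possible because there is 1 group. Depth is unknown, so whether a deeper library would move members across the threshold was not tested.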

Other observations

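Weak peaks that lay beside a strong summit at the same start were not members, and their values differ from those of members. There were 579 of them, with a median distance to the start of 359 bp, against 168 bp for members. In the replicate lists their median signals were 14.4 and 13.8, against 11.8 and 10.7, and 69.8% were in the conservative set, against 56.3% of members. A replicate peak under such a summit can belong to the strong neighbour, since the highest signal it overlapped in replicate 1 was 277.

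Some genes listed for their role in mitochondria or B cells lay close above the threshold of 30. Myc, a growth factor-induced transcription factor, had a highest promoter signal of 38.6, and Ebf1, a factor of early B cell development, 35.7. Foxo1 was well above it with 114. Cd79b, a signalling chain of the B cell receptor, had no optimal summit within 1000 bp of the start, and the nearest was 4073 bp away with a signal of 11.2. Bcl6 had none within 1000 bp either.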
